A study of Mus musculus with 54 samples.

Results

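Crtam, Cck, P2rx5, Alms1-ps2, Gm11166, 1700001J04Rik and Gm9199 are 7 of the 26264 genes in the count tables of mouse testis and ovary. They were picked by name, from results of these same data, because their levels fell into low and high classes among libraries, within groups as well as between them. Their levels in the libraries that led to the choice are therefore a description and not an independent finding. All 7 had a row in both tables.

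The libraries came from gonads of F1 mice and of F2 mice bred from the F1 groups. Exposure of F1 ran through drinking water from 8.5 days post coitum on, and so began before birth. The water held a control solution or a mixture of ibuprofen, 2-hydroxyibuprofen, diclofenac and ethinyl-estradiol. The mixture pairs anti-inflammatory drugs and a metabolite of ibuprofen with the synthetic estrogen of contraceptive pills. Control water held ethanol at 0.001%. Dose 1 held ibuprofen at 11.3 ng/L, its metabolite at 90 ng/L, diclofenac at 22.5 ng/L and the estrogen at 2.25 ng/L, and dose 2 held 113, 225, 112 and 45 ng/L in that order. Males were killed for their testes 35 days, and females for their ovaries 30 days, after birth. Each tissue had 9 groups of 3 libraries, named A, B and C. The F1 groups were control, dose 1 and dose 2. The F2 groups were a control cross, a maternal dose 1 and a maternal dose 2 cross (control father), a paternal dose 1 and a paternal dose 2 cross (control mother), and a biparental dose 2 cross. The sample labels of the F2 animals state no treatment of their own. The sources used here do not give the strain, the litters or the number of animals behind a library. Litter and group therefore cannot be told apart, and p-values measure the spread between these libraries, which may be technical. The smallest p that an exact permutation test could give for 3 libraries against 3 is 0.1.

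Levels are CPM (read counts scaled to a common library size of 1e6) on a scale common to the 27 libraries of a tissue, corrected with TMM (trimmed mean of M values) factors, and given in the order A, B, C. In both tissues they measure RNA of the whole organ, so fewer cells of a type and less RNA per cell cannot be told apart. Total counts per library, in units of 1e6, ran from 31.8 to 122.4 in F1 testis, from 31.6 to 48.2 in F2 testis, from 36.6 to 57.4 in F1 ovary and from 37.9 to 84.7 in F2 ovary. The F1 testis library at 122.4 was dose 1 C, and the next highest there, dose 2 A, was at 47.5. The labelled tissues matched their markers: Ddx4, a germ cell helicase gene, was at 329 to 603 CPM in testis, and Foxl2, the granulosa cell transcription factor gene, at 208 to 502 CPM in ovary. The F1 ovary libraries also held transcripts of Prm1, the spermatid protamine gene, at 2.4 to 234 CPM, the highest in control A. The highest Prm1 level in an F2 ovary library was 0.204 CPM. In F1 testis Prm1 was at 1596, 2124 and 4321 CPM in controls, at 3426, 6252 and 4809 CPM at dose 1 and at 4523, 1197 and 5553 CPM at dose 2. These groups overlapped, and the part of germ cell content in the F1 testis results was not tested.

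Of the members, 3 encode proteins. Crtam (gene ID 54698) encodes an immunoglobulin-family surface protein of activated cytotoxic T and natural killer cells, which binds the adhesion molecule encoded by Cadm1. Cck (12424) encodes the precursor of cholecystokinin, a gut hormone and neuropeptide that is cut from a longer chain and acts through the receptors encoded by Cckar and Cckbr. P2rx5 (94045) encodes a subunit of the ATP-gated P2X cation channels. RefSeq lists Gm11166 (625850) and 1700001J04Rik (102633312) as long non-coding RNA genes, and Alms1-ps2 (623273) and Gm9199 (668489) as transcribed pseudogenes. Alms1-ps2 is named as a copy of Alms1, a gene of the ciliary base. Reads of a pseudogene and its parent gene can be split or shared by counting, and reads of overlapping genes are uncertain without the strand setting, so values of the pseudogenes and non-coding members are less certain. Gm9199 overlaps Cysltr2, a leukotriene receptor gene.

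RefSeq promoter sequences of build GRCm38.p6 matched 3 of the 7 members. The 250 bases before each start are shown as the sequence beside the start of genes chosen for their low and high levels. Capitals mark an E-box (CACGTG) or a GC box (GGGCGG, or CCGCCC on the other strand). The Cck window is chr9:121495695-121495944, the 1700001J04Rik window chr11:114186750-114186999 and the Gm11166 window chr17:13098473-13098722, all on the minus strand and read 5′ to 3′.
Cck: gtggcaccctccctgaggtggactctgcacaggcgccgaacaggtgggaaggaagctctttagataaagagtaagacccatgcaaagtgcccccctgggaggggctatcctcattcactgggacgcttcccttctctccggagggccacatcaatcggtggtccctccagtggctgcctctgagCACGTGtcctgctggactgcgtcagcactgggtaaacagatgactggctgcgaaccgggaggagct
1700001J04Rik: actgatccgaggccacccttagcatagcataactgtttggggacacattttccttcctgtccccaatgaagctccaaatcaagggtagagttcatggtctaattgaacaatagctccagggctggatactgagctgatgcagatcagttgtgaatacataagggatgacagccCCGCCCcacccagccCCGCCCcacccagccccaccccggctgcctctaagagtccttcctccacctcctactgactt
Gm11166: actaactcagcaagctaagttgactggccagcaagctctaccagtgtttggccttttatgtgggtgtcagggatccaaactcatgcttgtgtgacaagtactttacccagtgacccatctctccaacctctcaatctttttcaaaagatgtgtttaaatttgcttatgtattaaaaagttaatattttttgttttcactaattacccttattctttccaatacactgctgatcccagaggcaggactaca
The Cck window held 1 E-box and 9 CpG, the 1700001J04Rik window 2 GC boxes and 4 CpG, and the Gm11166 window neither motif and 0 CpG. Among 32851 promoter windows of this length, 6.02% held an E-box, 32.7% a GC box and 12.4% a TATA box (TATAAA on either strand), with a median of 6 CpG, and none of the 3 windows held these TATA letters. These matches describe the reference sequence only, and the motifs do not overlap each other in the windows shown.

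**Figure D1:**
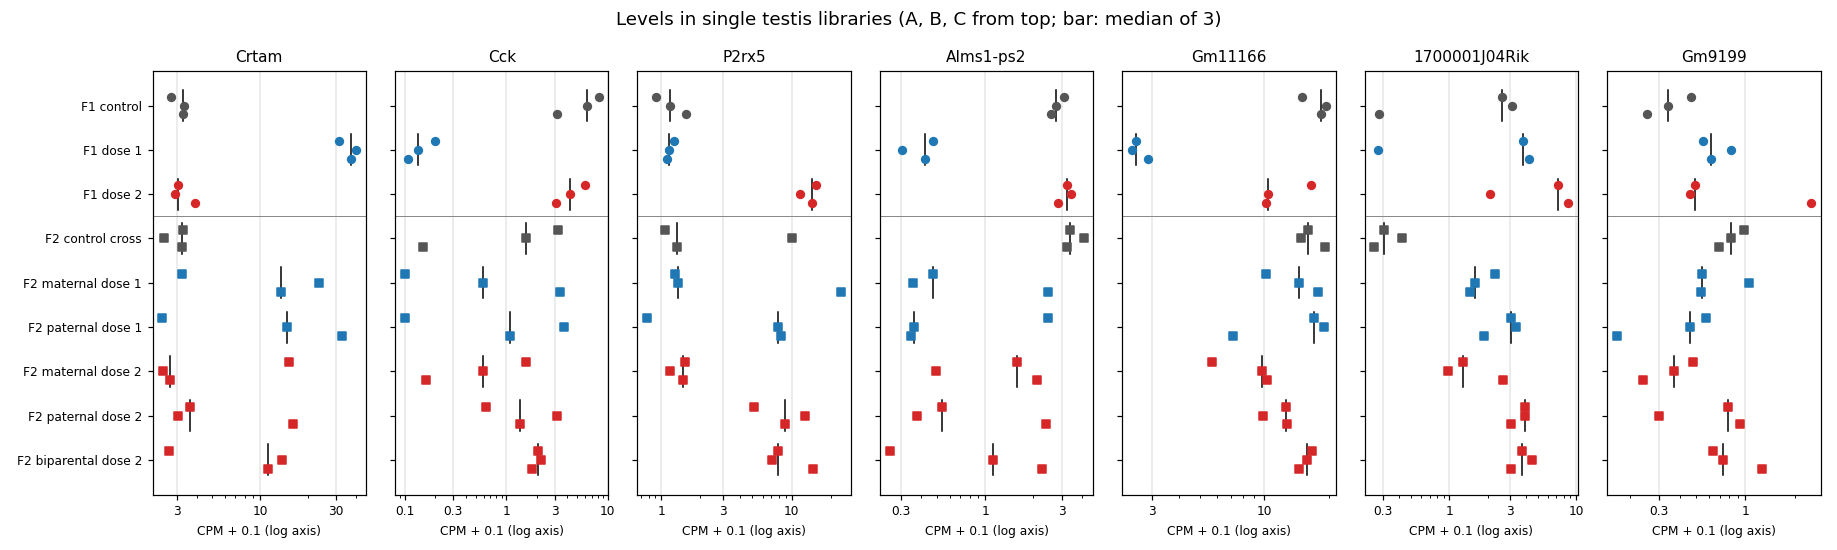
Levels of the 7 genes in each of the 27 testis libraries, as CPM plus 0.1 on a log axis, by group (grey: control, blue: dose 1, red: dose 2, of the animals in F1 and of the exposed parents in F2). Circles are F1 and squares F2 libraries, and black bars the median of 3. The F1 dose 1 libraries of Crtam sit at 31.3 to 39.9 CPM and the other F1 libraries at 2.66 to 3.81 CPM, while the F2 squares of 1 cross can lie at both ends.

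Crtam had 1 level per F1 testis group and mixed levels within F2 crosses. In F1 it was at 2.66, 3.22 and 3.2 CPM in controls, at 31.3, 39.9 and 36.8 CPM at dose 1, and at 2.95, 2.83 and 3.81 CPM at dose 2. The lowest dose 1 library was 8.22-fold above the highest of the other 6, and these groups did not overlap. In the F2 control cross Crtam was at 3.17, 2.41 and 3.16 CPM, within or near the range of the low F1 libraries. Each of the other 5 crosses held low and high libraries. The maternal dose 1 cross had 3.12, 23.2 and 13.3 CPM and the paternal dose 1 cross 2.34, 14.7 and 32.3 CPM. The maternal dose 2 cross had 15.0, 2.38 and 2.63 CPM, the paternal dose 2 cross 3.55, 2.98 and 15.9 CPM and the biparental cross 2.59, 13.6 and 11.2 CPM. High Crtam libraries thus occurred in dose 2 crosses although the F1 dose 2 libraries were all low. Of the 18 F2 libraries, 10 lay no higher than the highest low F1 library, 7 lay between the F1 levels at 11.2 to 23.2 CPM, and 1 lay at the level of F1 dose 1.

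In the comparison of F1 dose 1 with control, Crtam rose by 3.56 ± 0.18 (log2 fold change ± SE, n = 3 and 3, edgeR adjusted p = 0.000104). The mean levels were 36.0 ± 4.36 and 3.03 ± 0.321 CPM (SD). In F2 testis its change passed in no cross. With a dose 1 father it was 2.49 (edgeR adjusted p = 0.272), and with a dose 1 mother 2.17 (edgeR adjusted p = 0.739). Crtam was selected for the F1 difference, so its call there is not a test of the choice.

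Of the 16 markers of T and natural killer cells, Cd3d and Cd8b1 were the only ones with a median of 1 CPM or more over the 27 testis libraries. Nkg7 and Prf1, which define cytotoxic granule cells, were at 0 in 22 and 21 of these libraries. Cd3d, a gene of the T cell receptor complex, reached 31.2 CPM, while Cd3e and Cd3g, of the same complex, reached 0.45 and 0.225 CPM. In F1 testis Cd3d was at 5.65, 7.52 and 15.1 CPM in controls, at 9.74, 31.2 and 14.3 CPM at dose 1 and at 13.6, 5.23 and 21.6 CPM at dose 2. Its lowest and highest F1 libraries, dose 2 B and dose 1 B, were also the lowest and highest for Prm1. The summed level of the 16 markers, of which Cd3d was a large part, was 10.4 to 20.0 CPM in F1 controls, 15.3 to 36.5 CPM at dose 1, 10.0 to 26.9 CPM at dose 2 and 9.38 to 14.4 CPM in F2. Some markers varied more than the sum, such as Cd8a at 0.114 to 0.997 CPM, and others less, such as Cd8b1 at 1.69 to 3.03 CPM. The part of these cells in the Crtam levels was not tested. Cadm1, which encodes the binding partner of Crtam, stayed at 73.3 to 106.5 CPM, and Scrib, a polarity gene whose product also binds Crtam, at 280.1 to 421.1 CPM.

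Cck went the other way at dose 1 and was near 0 in single libraries of 4 F2 crosses. In F1 testis it was at 8.06, 6.2 and 3.1 CPM in controls and at 5.9, 4.16 and 3.01 CPM at dose 2, but at dose 1 the 3 libraries held only 4, 1 and 1 reads. The lowest of the 6 other F1 libraries was 30.0-fold above the highest dose 1 library, a ratio that rests on 4 reads. In F2 the control cross had 3.17, 1.49 and 0.0518 CPM, so an unexposed cross also held a library with 2 reads. The maternal dose 1 cross had 0, 0.489 and 3.32 CPM, the paternal dose 1 cross 0, 3.65 and 0.983 CPM and the maternal dose 2 cross 1.46, 0.496 and 0.0606 CPM. Only the dose 2 father crosses lacked a library at this bottom, with 0.529, 3.08 and 1.26 CPM in the paternal and 1.97, 2.1 and 1.7 CPM in the biparental cross. The 14 other F2 libraries ranged from 0.489 to 3.65 CPM.

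In F1 dose 1 against control Cck fell by 7.27 ± 0.70 on the log2 scale (edgeR adjusted p = 0.00934). With so few dose 1 reads the size of this fold is set in part by the prior count. Leaving out library B or library C of dose 1 ended the call, with edgeR adjusted p = 0.0908 and 0.066. No F2 cross passed for Cck.

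The other genes of the cholecystokinin system gave 0 calls by edgeR and 0 by DESeq2 in the 7 testis comparisons, with 3 of 42 tests at an unadjusted p under 0.05. Per testis comparison 0.00516% to 0.372% of all genes passed by edgeR. An unadjusted edgeR p under 0.05 was met by 368 and 605 of 19025 genes in F1, and by 972 to 3052 of 19379 in F2. Beside these shares the counts do not set so short a list apart. The receptor genes were scarcely read: Cckar was at 0 in 21 of 27 testis libraries and Cckbr reached 0.3 CPM. The prohormone genes were higher, with Cpe, a carboxypeptidase, at 70.5 to 103 CPM and Pam, the amidating enzyme, at 20.4 to 32.5 CPM. Pcsk1, the prohormone convertase that cuts such precursors, was itself split among libraries (0.353 to 8.16 CPM, widest gap 1.06 on the log2 scale). Its low libraries were F1 control B at 0.353, F1 dose 2 B at 0.517 and F2 maternal dose 2 A at 0.513 CPM, none of them a library in which Cck was near 0. The summed level of 5 neuroendocrine markers (Chga, Chgb, Scg2, Syp and Pcsk1n) was 28.5 to 30.0 CPM at F1 dose 1, inside the 24.7 to 36.3 CPM of F1 controls.

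P2rx5 was high at F1 dose 2 and in at least 1 library of every F2 cross but the maternal dose 2 cross. In F1 testis it was at 15.2, 11.6 and 14.1 CPM at dose 2, at 0.811, 1.06 and 1.46 CPM in controls and at 1.15, 1.06 and 1.02 CPM at dose 1. The lowest dose 2 library was 7.94-fold above the highest of the other 6. In the F2 control cross, with no exposed parent, it was at 0.974, 9.95 and 1.22 CPM, so library B was high. The maternal dose 1 cross had 1.17, 1.24 and 23.9 CPM, the highest library of the study for this gene, and the paternal dose 1 cross had 0.679, 7.75 and 8.16 CPM. All libraries were high with a dose 2 father, at 5.01, 12.6 and 8.73 CPM in the paternal and 7.78, 6.99 and 14.4 CPM in the biparental cross. All were low with a dose 2 mother and a control father, at 1.41, 1.07 and 1.37 CPM. Of the 18 F2 libraries, 8 lay no higher than the low F1 libraries, 7 between the F1 levels at 5.01 to 9.95 CPM and 3 at the level of F1 dose 2 or above.

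In F1 dose 2 against control P2rx5 rose by 3.60 ± 0.24 (edgeR adjusted p = 0.0013). No F2 cross passed for P2rx5. The other 6 P2X subunit genes gave 0 calls by edgeR and 0 by DESeq2 over the testis comparisons, with 3 of 42 tests at an unadjusted p under 0.05. Beside the shares of all genes given for the cholecystokinin genes, these counts do not set the list apart. P2rx3 reached 68.4 CPM, P2rx2 ran from 25.6 to 47.8 CPM, and P2rx4 and P2rx7 from 4.98 to 9.77 CPM over the 27 libraries, and none of the subunit genes at 1 CPM or more was split.

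Alms1-ps2 was low at F1 dose 1 and, in F2, low in at least 1 library of each cross with an exposed parent. In F1 testis it was at 0.376, 0.204 and 0.321 CPM at dose 1 (15, 6 and 37 reads). It was at 3.02, 2.65 and 2.49 CPM in controls and at 3.15, 3.35 and 2.75 CPM at dose 2. The F2 control cross was high throughout, at 3.28, 4.01 and 3.14 CPM. The maternal dose 1 cross had 0.372, 0.257 and 2.37 CPM, and the paternal dose 1 cross had 2.37, 0.261 and 0.246 CPM. The dose 2 crosses were mixed as well, although F1 dose 2 was high throughout. They had 1.49, 0.396 and 2.0 CPM in the maternal, 0.436, 0.275 and 2.31 CPM in the paternal and 0.154, 1.02 and 2.15 CPM in the biparental cross. The high F2 libraries of these crosses, at 1.02 to 2.37 CPM, all lay below the lowest F1 control of 2.49 CPM. These 5 crosses did not overlap the control cross, but all were set against its same 3 libraries. The gene was chosen with these levels known, and the share of all genes without overlap was not counted, so this is a description.

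In F1 dose 1 against control Alms1-ps2 fell by 3.15 ± 0.26 (edgeR adjusted p = 0.00338; 0.0607 without dose 1 C), and no F2 cross passed. Its parent gene Alms1 was at 123 to 285 CPM in testis and did not pass by edgeR or DESeq2 in any of the 7 comparisons (2 at an unadjusted p under 0.05).

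Gm11166 was low in the F1 dose 1 testis only. It was at 2.43, 2.32 and 2.77 CPM there, at 14.9, 19.3 and 18.3 CPM in controls and at 16.5, 10.3 and 10.1 CPM at dose 2. No F2 library reached the low range. The F2 control cross had 16.0, 14.7 and 19.2 CPM, the biparental cross 16.6, 15.8 and 14.5 CPM, and the paternal dose 2 cross 12.6, 9.75 and 12.7 CPM. The lowest F2 libraries were maternal dose 2 A at 5.59 CPM and paternal dose 1 C at 7.08 CPM. The maternal dose 2 cross, at 5.59, 9.69 and 10.2 CPM, did not overlap the control cross, but its change of -0.96 did not pass (edgeR adjusted p = 0.148). In F1 dose 1 against control Gm11166 fell by 2.81 ± 0.23 (edgeR adjusted p = 0.00338). Leaving out dose 1 B gave an edgeR adjusted p = 0.0527, and leaving out dose 1 C gave 0.0607.

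For 1700001J04Rik the order was reversed, with mixed F1 groups and F2 crosses of 1 class each. In F1 testis it was at 2.51, 3.04 and 0.179 CPM in controls, at 3.73, 0.17 and 4.15 CPM at dose 1 and at 7.09, 2.0 and 8.61 CPM at dose 2. The low libraries were control C with 7 reads and dose 1 B with 5. The 3 F2 control libraries were low at 0.204, 0.318 and 0.156 CPM (9, 12 and 6 reads), and the 15 libraries of the other crosses were high at 0.867 to 4.4 CPM. They had 2.21, 1.49 and 1.36 CPM in the maternal dose 1, 1.18, 0.867 and 2.57 CPM in the maternal dose 2 and 2.97, 3.26 and 1.79 CPM in the paternal dose 1 cross. The dose 2 father crosses were at 3.86, 3.83 and 2.95 CPM and, with both parents, at 3.61, 4.4 and 2.99 CPM. The change passed in all 5 crosses by edgeR, which share the same 3 control libraries: 2.89 ± 0.43 in the maternal dose 1 cross (adjusted p = 0.0474), 2.78 ± 0.43 in maternal dose 2 (adjusted p = 0.00853), 3.55 ± 0.42 in paternal dose 1 (adjusted p = 0.0011), 3.96 ± 0.41 in paternal dose 2 (adjusted p = 0.000394) and 4.01 ± 0.41 in the biparental cross (adjusted p = 0.000313). The maternal dose 1 call was lost in 5 of 6 fits that left out 1 of its libraries, with edgeR adjusted p up to 0.416. The maternal dose 2 call was lost without control cross A and without maternal dose 2 C, with edgeR adjusted p = 0.0838 and 0.067, and with the 6 libraries compared alone (edgeR adjusted p = 0.0654). Control levels in F1 testis overlapped both classes, and neither F1 dose passed. The gene was chosen with results of these comparisons known, so its calls are a description.

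**Figure D2:**
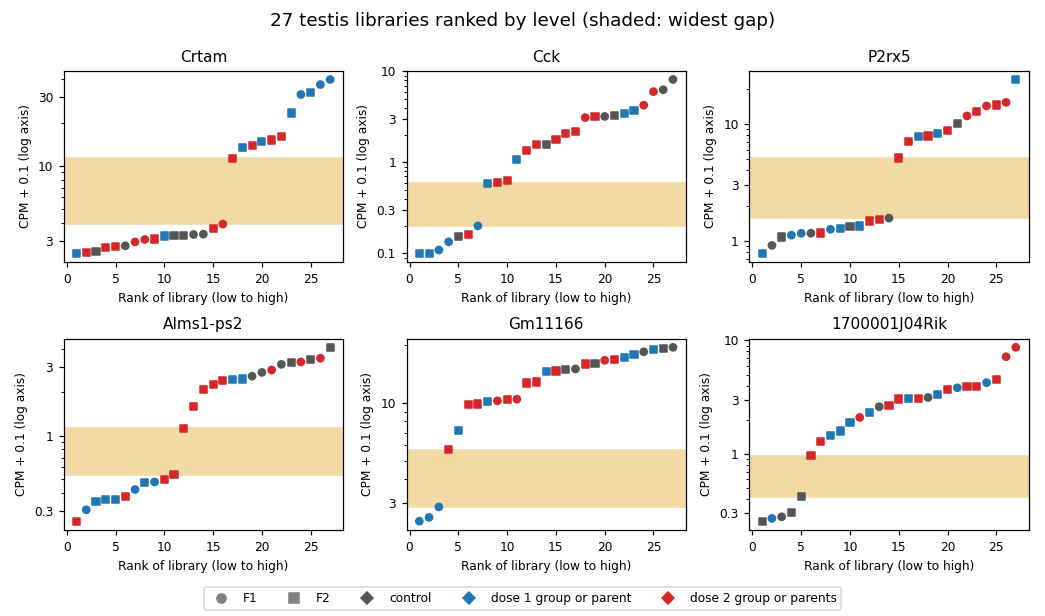
The 27 testis libraries of 6 genes ranked from low to high, as CPM plus 0.1 on a log axis; circles are F1 and squares F2 libraries, coloured by dose group or exposed parent. The shaded band is the widest gap between neighbours with at least 3 libraries on each side, such as 3.81 to 11.2 CPM for Crtam and 1.46 to 5.01 CPM for P2rx5.

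The steps between classes were measured as the widest gap between neighbouring libraries on the scale log2(CPM + 0.1), with at least 3 of the 27 libraries on each side. A gene with a mean of at least 1 CPM was called split where that gap was 1 or more, which is 2-fold. In testis 69 of 16442 genes, or 0.42%, were split, and the median gap of all genes was 0.108. The split members were Crtam (gap 1.53, 11 libraries high and 16 low), Cck (1.56, 20 high and 7 low), P2rx5 (1.71, 13 high and 14 low), Alms1-ps2 (1.07, 16 high and 11 low) and 1700001J04Rik (1.21, 22 high and 5 low). Gm11166 fell just short at 0.988, with 3 low libraries, and Gm9199 was under 1 CPM in testis. The gap describes values that led to the choice of these genes, so the 5 of 7 are not read against the 0.42%. With a pseudocount of 0.5 in place of 0.1 the count of split members was 2, and at a gap of 2 it was 0.

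By these classes 0 of the 3 F1 testis groups were mixed for Crtam, Cck, P2rx5 and Alms1-ps2, while 5, 4, 3 and 5 of the 6 F2 crosses were. For 1700001J04Rik 2 of the F1 groups were mixed and 0 of the F2 crosses. The classes of these genes combined in many ways. Over Crtam, Cck, P2rx5 and Alms1-ps2 the 18 F2 libraries showed 10 of 16 possible patterns, from none of the genes high to all 4 high. Crtam and Alms1-ps2, which stood opposite each other at F1 dose 1, were both high in 5 F2 libraries, both low in 5, and apart in 8. All 8 F2 libraries with high Crtam had Cck above its gap, as had 6 with low Crtam, and all 10 with high P2rx5 had Cck above its gap, as had 4 with low P2rx5. These counts were not tested.

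**Figure D3:**
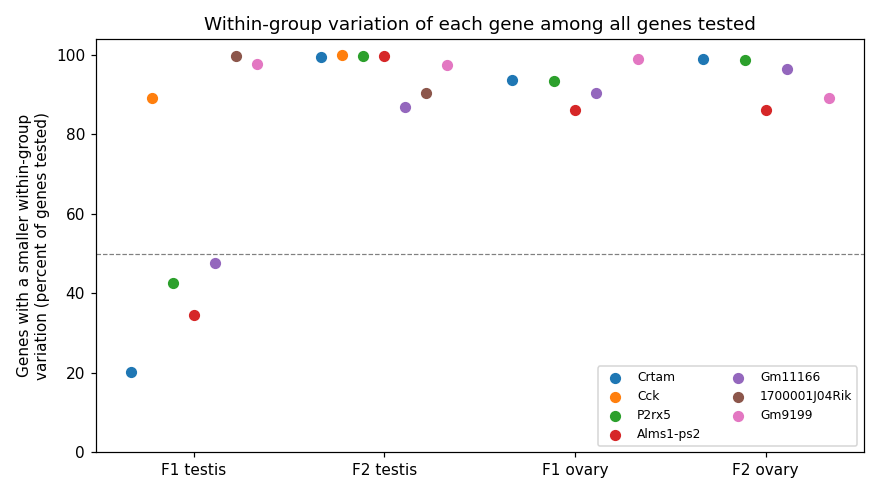
For each gene, the percent of all genes tested in the same tissue and generation whose within-group variation was smaller; the dashed line marks the middle of all genes. Crtam sits at 20.2% in F1 testis and at 99.5% in F2 testis. The genes were chosen for such levels, so the ranks are a description.

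Within-group variation was taken as edgeR's biological coefficient of variation (BCV), the estimated spread between replicates of a group relative to the mean. In F1 testis Crtam had a BCV of 0.174, P2rx5 of 0.206, Alms1-ps2 of 0.194 and Gm11166 of 0.214, all under the median of 0.218 over 19025 genes, while Cck had 0.383, above 89.1% of genes. In F2 testis the BCV was 0.711 for Crtam, 0.795 for P2rx5, 0.794 for Alms1-ps2 and 1.16 for Cck, against a median of 0.102. Cck then ranked at place 18 and Crtam at place 90 of 19379 genes. Gm11166 had a BCV of 0.238, above 86.9% of genes. The F1 testis values of 1700001J04Rik and Gm9199 were 0.862 and 0.567, above 99.6% and 97.7% of genes. In F2 testis they were 0.27 and 0.416, still above 90.4% and 97.4% of genes. The plot of these ranks shows 4 members below the middle in F1 testis and none below it in the other 3 settings. The members were chosen for their levels within and between groups of these libraries. Their ranks are therefore a description and are not read as a result against all genes.

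Among the F1 testis comparisons, 4 of the 7 members passed at dose 1 and 1 at dose 2. No other gene passed there, so the shares of all genes, 0.021% and 0.00526%, consist of these members. These contrasts served to choose the members, and the counts are not read against the shares. Among the F2 testis crosses 1700001J04Rik was the 1 member that passed in each, and results of these crosses were also known when the members were chosen. The share of all genes that passed was 0.0103% in the maternal dose 1, 0.372% in the maternal dose 2, 0.201% in the paternal dose 1, 0.00516% in the paternal dose 2 and 0.0155% in the biparental cross. In the paternal dose 2 cross 1700001J04Rik was the 1 gene that passed. Gm9199 had an F2 testis range of 0.067 to 1.15 CPM and passed in no testis comparison.

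**Figure D4:**
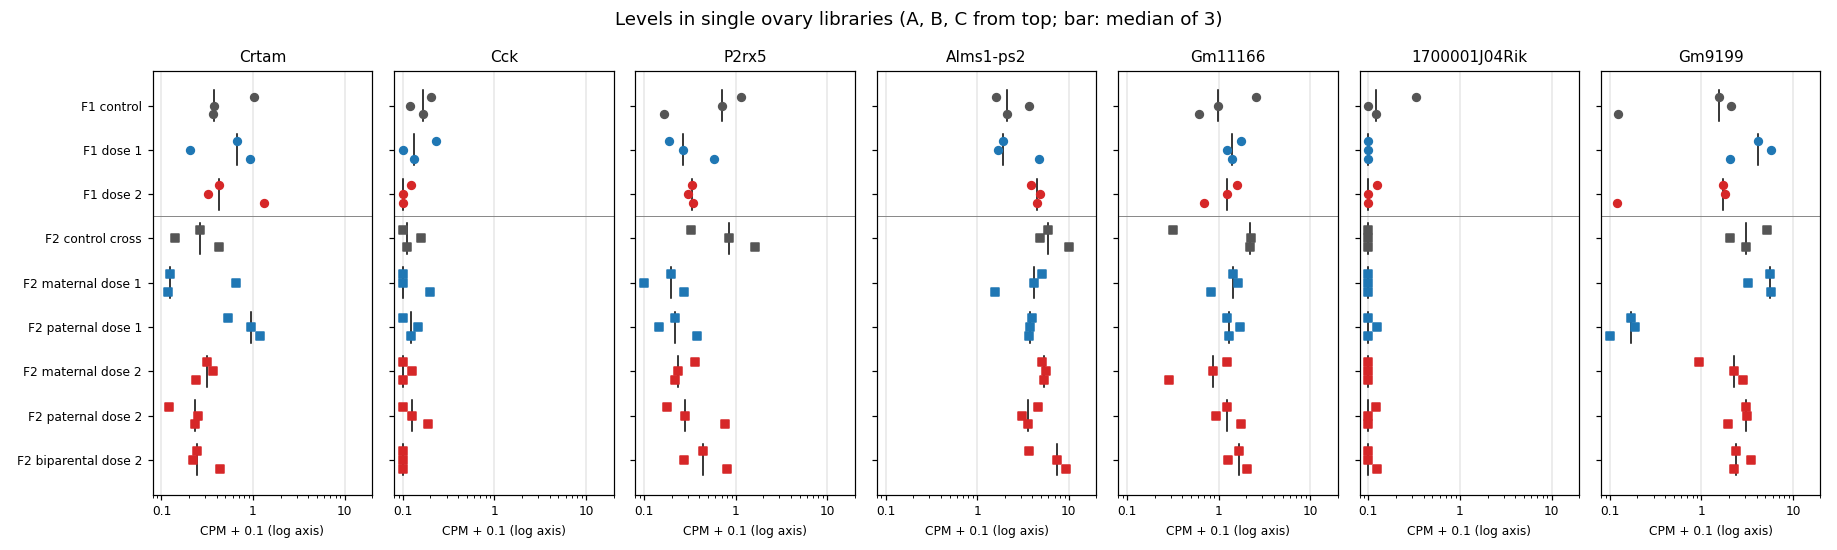
Levels of the 7 genes in each of the 27 ovary libraries, as CPM plus 0.1 on a log axis, drawn as for testis with 1 scale for all panels. Gm9199 sits at 0.0901 CPM or less in all 3 libraries of the F2 paternal dose 1 cross and in 2 F1 libraries, and at 0.846 CPM or more in the other 22.

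In the ovary Gm9199 was the member with a clear step. In F1 it was at 1.47, 1.98 and 0.022 CPM in controls, at 4.09, 5.68 and 1.97 CPM at dose 1 and at 1.6, 1.73 and 0.0202 CPM at dose 2, so control C and dose 2 C, with 1 read each, stood far below their groups. In the F2 paternal dose 1 cross all 3 libraries were low, with 3, 4 and 0 reads, or 0.0715, 0.0901 and 0 CPM. The F2 control cross had 5.08, 1.95 and 2.96 CPM, the maternal dose 1 cross 5.48, 3.15 and 5.72 CPM and the maternal dose 2 cross 0.846, 2.15 and 2.73 CPM. The paternal dose 2 cross had 2.98, 3.02 and 1.87 CPM and the biparental cross 2.31, 3.37 and 2.16 CPM. In the paternal dose 1 cross Gm9199 fell by 5.90 ± 0.66 against the control cross (edgeR adjusted p = 0.00199), again with a size set in part by the prior count. It was the 1 gene that passed there, or 0.00575% of genes. With the 6 libraries compared alone the adjusted p was 0.135. The call served to choose this gene, and the low F1 libraries C of control and dose 2 came from groups whose other libraries were high.

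Gm9199 had the widest gap of any member, 2.32 on the log2 scale, and was the 1 split member of the ovary, where 132 of 14879 genes, or 0.887%, were split. In testis it was below 1 CPM in all but 2 libraries, F1 dose 2 C at 2.39 CPM and biparental C at 1.15 CPM. Its 3 libraries of the F2 testis paternal dose 1 cross had 0.478, 0.365 and 0.067 CPM, below the control cross at 0.883, 0.716 and 0.596 CPM, without passing (edgeR adjusted p = 0.352).

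The genes that stepped in testis did so less clearly in ovary. Alms1-ps2 was at 1.45 to 9.94 CPM in the 27 ovary libraries, with a widest gap of 0.544. It was low at F1 dose 1 A and B (1.82 and 1.57 CPM), as it was in control A and C (1.5 and 2.04 CPM), while dose 1 C was at 4.66 CPM. Crtam was at 0.0191 to 1.21 CPM, with its highest library in F1 dose 2 C. The 3 libraries of the F2 paternal dose 1 cross, at 0.429, 0.856 and 1.08 CPM, lay above the F2 control cross at 0.166, 0.0389 and 0.323 CPM, but the change of 2.09 did not pass (edgeR adjusted p = 0.836). The T and natural killer cell markers summed to 8.72 to 27.7 CPM in that cross and 14.3 to 29.8 CPM in the control cross, with Cd8a at 0.286, 2.88 and 1.86 CPM and at 0.626, 0.389 and 1.02 CPM. Libraries B and C of the paternal dose 1 cross were thus higher than A in both Crtam and Cd8a, and the part of these cells in the Crtam values was not tested. In biparental C the markers summed to 142.4 CPM, above every library of the other 8 ovary groups, and Crtam was at 0.332 CPM. Gm11166 was at 0.187 to 2.44 CPM with a gap of 0.329.

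P2rx5 was at 0 to 1.52 CPM in ovary, highest in F2 control cross C and F1 control A. The F2 maternal dose 1 cross, at 0.0942, 0 and 0.172 CPM, lay below the control cross at 0.221, 0.74 and 1.52 CPM, but the change of -3.11 did not pass (edgeR adjusted p = 0.351). F1 control A is also the ovary library with Prm1 at 234 CPM, and the part of spermatid RNA in its P2rx5 value of 1.04 CPM was not tested. The same library held 9 reads of 1700001J04Rik, of which 21 of the 27 ovary libraries had 0 and the others 1. Cck had at most 6 reads in an ovary library. Cck and 1700001J04Rik were too low in ovary to be tested.

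In F1 ovary 0 members passed by edgeR at either dose and 0 by DESeq2, and 0% of all genes passed by edgeR. Of 10 member tests 0 had an unadjusted edgeR p under 0.05. Of all 17896 genes 1490 met this at dose 1 and 671 at dose 2. In F2 ovary 1 of 25 tests passed by edgeR and 1 by DESeq2, both for Gm9199 in the paternal dose 1 cross. In the other 4 F2 ovary crosses 0% of all genes passed by edgeR. An unadjusted edgeR p under 0.05 was met by 8 of the 25 member tests. Per cross, 664 to 2280 of all 17400 genes met it. The member tests that met it were of P2rx5 and Alms1-ps2, each in several crosses, and of Crtam and Gm9199. They share the same control cross libraries, so they are not separate observations and are not read against these shares.

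None of the neighbouring genes at 1 CPM or more was split. The 3 nearest genes with a row in the tables on each side of the members, taken from the order of the RefSeq annotation, came to 42. In testis 30 of them reached a mean of 1 CPM and 0 were split, and in ovary 19 reached it and 0 were split. Of all genes at that level 0.42% were split in testis and 0.887% in ovary. At these shares 0 in sets this small does not set the neighbours apart. Next to Crtam, Jhy was at 74.6 to 121 CPM and Ubash3b at 3.88 to 9.12 CPM in testis. Trak1 and Lyzl4 beside Cck were at 38.1 to 72.3 and 34.4 to 129 CPM, and Haspin and Emc6 beside P2rx5 at 744 to 970 and 26.4 to 101 CPM. Of the neighbours of 1700001J04Rik, Gm11691 varied most, from 1.8 to 29.6 CPM with a gap of 0.474.

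Genes with the most similar pattern were sought among all genes at 1 CPM or more. The measure of likeness was Pearson's r of log2(CPM + 0.1) over the 27 libraries of a tissue, given as a description, because the libraries share groups, depth and scaling and fall into classes. The most like genes had r = 0.648 for Crtam (1300017J02Rik), 0.72 for Cck (Esyt3, which encodes a lipid transfer protein), 0.675 for P2rx5 (Efemp1, a fibulin gene), 0.651 for Alms1-ps2 (AA414768), 0.658 for 1700001J04Rik (Actn2, a muscle actinin gene) and, in ovary, 0.759 for Gm9199 (Pkd1l2). With values centred on the group means these became 0.495, 0.425, 0.421, 0.575, 0.628 and 0.76 in that order. Zfp830, a zinc finger gene, was in the first 3 for both Cck and P2rx5, at r = 0.675 and 0.636. The first gene lay on the member's chromosome for Crtam, Cck and P2rx5. Between member and gene lay 643, 330 and 654 genes of the tables. For P2rx5 all of the first 3 genes lay on its chromosome, but for Crtam and Cck the rest of the first 3 did not. For Alms1-ps2, 1700001J04Rik and Gm9199 all of the first 3 lay on other chromosomes. The share of all genes on each chromosome was not counted, so no link is read from these positions.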

How the data were processed

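The series holds 54 RNA-seq libraries of mouse gonads. Whole-number counts of reads per gene, not normalized by the authors, were deposited; per the labels' protocols the libraries were made with a stranded mRNA ligation kit. The submitters' processing notes name TopHat2 2.1.1, Bowtie2 2.4.5, featureCounts 2.0.3 and DESeq2 1.32.0 and the mm39 build. Annotation and strand setting: not given in the sources used here. RefSeq tables of another build gave names, neighbours and promoter sequences only.

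The model was edgeR 4.0.16 in R 4.3.3 (TMM, filterByExpr with a minimum count of 10, quasi-likelihood F tests, Benjamini-Hochberg over all genes at 0.05), separately for each tissue and generation, in 14 comparisons with the control. Levels used TMM factors over the 27 libraries of a tissue. All 7 members are named, with the fold change where they passed or are set beside a call, the 3 most like genes per split member (the first given, and 1 that 2 members shared) and, of the 3 nearest genes per side, a few with their levels and the rest by counts. Pathway and marker lists are given by range. The members and lists were chosen with earlier results of these data known. Replicate libraries differed by more than counting error (lowest chi-square per degree of freedom 7.43). Libraries with the same letter deviated together (every correlation over 0.1) in 1 comparison, F2 ovary biparental, where no member passed with or without the letters as a block. Alternatives were RLE scaling, no filter, DESeq2 1.42.0, the letter as a block, the 6 libraries compared alone, leaving out each library, and other settings of the gap and the likeness.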

Additional observations from a re-analysis of the deposited data

How the results depend on the processing

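Of 121 recomputed log2 fold changes of the 11 calls of members, 106 kept their direction and stayed past the threshold, 15 kept their direction without passing, and 0 reversed; all 11 calls passed with RLE scaling, with no filter and by DESeq2. With each library left out in turn, the number of calls ranged from 2 to 5 in F1 testis (3 without dose 1 B and 2 without dose 1 C) and from 3 to 6 in F2 testis (3 without control cross A); the cause was not tested. With the 6 libraries compared alone, F2 ovary had 0 calls in place of 1 and F2 testis 4 in place of 5, with fewer samples in the fit. With the replicate block, the number of calls was 5 in F1 testis, 4 in F2 testis (1700001J04Rik in the maternal dose 1 cross had an edgeR adjusted p = 0.0701), 0 in F1 ovary and 1 in F2 ovary. Replicate letters have no stated meaning, and the letters did not pair the libraries elsewhere.

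Split members in testis numbered 2 with a pseudocount of 0.5, 0 at a gap of 2, 6 with library totals in place of TMM, and 5 to 6 with any library left out (Gm11166 lies at the threshold). A larger pseudocount compresses low levels by construction. In ovary the number was 1 under each setting. Of the 18 pairs of a member and a most like gene (Zfp830 is in 2 of them), 7 were kept by Spearman's rho and 1 with values centred on the group means, so those names depend on the measure. Low classes of Cck, 1700001J04Rik and Gm9199 rest on 0 to 12 reads a library, where counting error is large. The low class of Alms1-ps2 in testis rests on 6 to 37 reads a library.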
